A study of Mus musculus with 6 samples.

Results

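The wild-type transcriptome of primary mouse embryonic fibroblasts (pMEFs) was described from the 3 libraries labelled HAT1 WT, which were taken from the 6 RNA-seq libraries of the study by their genotype label alone. The other 3 libraries, labelled HAT1 KO, entered only a check of the genotype label. The 3 wild-type cultures carry the line numbers 36, 47 and 78, share the C57bl6 strain background and were grown in DMEM with fetal bovine serum and penicillin and streptomycin. The study isolated its fibroblasts from mid-gestation embryos after removal of the internal organs, dissociated the remaining tissue with trypsin and passaged the cells on plastic, so each culture began as a mixture of tissues of the embryo body. The labels do not say whether each line came from a separate embryo, so the spread over lines may be in part technical. All 17512 genes of the count table were described, as CPM, the counts of a gene divided by the total counts of its library and multiplied by 1000000.

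Fibroblasts are the connective-tissue cells that secrete and remodel the extracellular matrix, above all fibrillar collagen and the glycoproteins that bind it. In culture on plastic they take on features of myofibroblasts, with actin stress fibres and strong adhesion. Fibroblasts of different body regions keep different sets of Hox genes active, and primary embryonic cultures can carry along macrophages and other cells of the embryo.

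The libraries held 76324312, 79432866 and 98786746 counts in lines 36, 47 and 78, so that 1 count was worth 0.0101 to 0.0131 CPM. A gene with no count could have had up to 3 counts, or 0.0304 to 0.0393 CPM. This allowance covers counting error only and takes each count as independent. Hat1 itself, the histone acetyltransferase by which the study divided its lines, had 17.2, 23.4 and 20.1 CPM in lines 36, 47 and 78. The libraries labelled HAT1 KO had 10.0 to 10.4 CPM, below every wild-type line. No 2 wild-type libraries agreed within sampling noise. The 3 wild-type libraries were run in different lanes (8, 6 and 7 for lines 36, 47 and 78), so among them line and lane cannot be told apart. In bulk RNA, fewer cells of a type and less RNA per cell cannot be told apart either.

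The label of the cells held in their markers. All 16 transcripts of a fibroblast list were at 1 CPM or more and 15 were at 10 CPM or more, with a summed level of 106548, 101906 and 111069 CPM in lines 36, 47 and 78. Col1a1, the main chain of type I collagen, was the most abundant gene in every line at 33498, 35224 and 35819 CPM. Thbs1, the matricellular glycoprotein thrombospondin 1, was the next most abundant in every line at 21475, 19833 and 23756 CPM. Both varied little, with a highest line no more than 1.20 times the lowest. Fn1, which encodes the adhesive glycoprotein fibronectin, had 14377, 10445 and 7795 CPM. Sparc, a collagen-binding glycoprotein, had 4508, 4293 and 5301 CPM. Fn1 was thus highest in line 36 and lowest in line 78, while Sparc was highest in line 78. The calcium-binding protein S100a4, often used as a fibroblast marker, was the lowest of the list at 3.76 ± 0.291 CPM (SD, n = 3).

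The most abundant genes were those of the matrix and of the cell's contractile frame. In order of mean CPM, the 25 leading genes were Col1a1, Thbs1, Col1a2, Fn1, Col3a1, Actb, Col12a1, Rpph1, Ahnak, Eef1a1, Tnc, Col5a1, Flna, Sparc, Postn, Lrp1, Fbln2, Thbs2, Lox, Eef2, Col6a3, Myh9, Acta2, Bgn and Lars2. Of these, 22 were among the 25 leading genes of every line. Col1a2, the partner chain of Col1a1, was the third gene at 16404, 16411 and 17289 CPM. The order below it was less firm. Col3a1, the type III collagen chain, had 6644, 5543 and 10876 CPM, and Actb, cytoplasmic actin, had 7702, 8259 and 6877 CPM. Col3a1 lay below Actb in lines 36 and 47 and above it in line 78. Col12a1, a fibril-associated collagen, had 5471, 6421 and 9798 CPM and was likewise highest in line 78. Lars2, annotated as the mitochondrial leucyl-tRNA synthetase, ran the other way with 4355, 3143 and 2201 CPM. Whether all counts at this locus come from the Lars2 transcript was not tested.

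**Figure D1:**
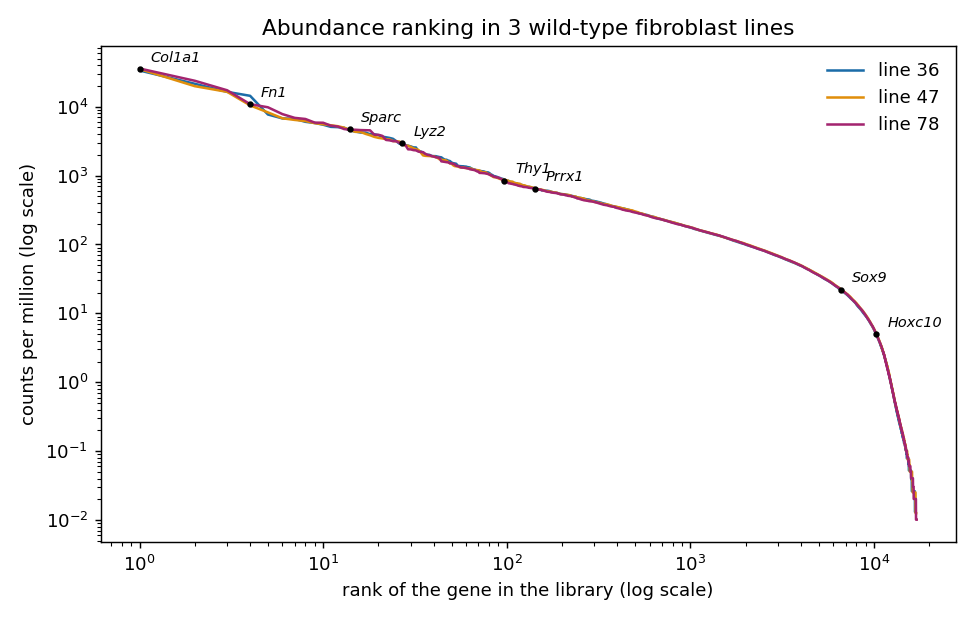
CPM of each gene against its rank within the library, both on log scales, with 1 curve per wild-type line. Black points mark the mean rank and mean level of named genes. The 3 curves lie on each other except among the leading genes, and fall steeply after about the level of Sox9, at 22.1 CPM.

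The plot of level against rank shows how steep the distribution was. The leading gene took 3.48 ± 0.121% of the counts (SD, n = 3), the 10 leading genes 12.5 ± 0.492% and the 100 leading genes 29.4 ± 0.552%. The number of genes needed to reach 50% of the counts was 577, 605 and 585 in lines 36, 47 and 78, and 4906, 4978 and 4935 genes held 90%. From 1 count to the level of Col1a1 the libraries spanned 6.41 to 6.55 orders of magnitude. The mean level was 1 CPM or more for 12374 genes, 10 CPM or more for 8860, 100 CPM or more for 2016 and 1000 CPM or more for 85. The requirement that every line reach the level left 12029, 8550, 1863 and 74 genes. The 85 genes at 1000 CPM or more held 28.0% of the counts, and the 6844 genes between 10 and 100 CPM held 26.2%. At the low end, 24 genes had no count in any wild-type line, and 2460 genes had a mean under 0.1 CPM.

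CPM favours long transcripts, so levels were compared between genes per kilobase of exon (CPM per kb, with the union of the annotated exons as the length). On this scale the leading gene was Rpph1, the RNA of ribonuclease P, at 21174, 21252 and 14494 CPM per kb. Rn7sk, the RNA that holds the elongation factor P-TEFb inactive, came next at 5436 ± 639 CPM per kb (SD, n = 3), and Col1a1 had 5310 ± 184. The values of Rn7sk and Col1a1 overlapped across lines, so that pair has no firm order. The RNA kit named in the labels captures polyadenylated RNA, and Rpph1 and Rn7sk are made by RNA polymerase III without a poly(A) tail. Of the 25 genes leading per length, 5 were non-coding and 13 were also among the 25 leading by CPM.

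Among protein-coding genes, the per-length order by union exon length opened with Col1a1, Thbs1, Actb, Eef1a1 and Lyz2. With the basic transcript set of the annotation, a length added after seeing the data, it opened with Col1a1 at 5876, Actb at 3965, Thbs1 at 3709, Eef1a1 at 3148, Col1a2 at 3123 and Lyz2 at 2236 CPM per kb, and 19 of the 25 genes leading among all genes stayed. Eef1a1, the elongation factor that delivers tRNA to the ribosome, had 2266 ± 181 CPM per kb (SD, n = 3). Lyz2, the lysozyme of macrophages and neutrophils, had 2111, 2413 and 2183 CPM per kb and rank 8 of all genes, with all 3 lines close together. After these came Rplp1, a protein of the ribosomal stalk, at 1524 ± 144 CPM per kb, and smooth muscle actin Acta2 at 1499 ± 125, which did not differ beyond their spread. Col1a2 followed with 1344 ± 40.98 CPM per kb, where the annotated exon length matters. With all transcripts Col1a1 lay 3.95 times above Col1a2 per kb, and with the basic transcript set 1.88 times.

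The 4 genes on which the fibroblast label was checked lie on 3 chromosomes (GRCm38, GENCODE M21). Col1a1 (ENSMUSG00000001506) is at chr11:94936224-94953042 on the plus strand and Thbs1 (ENSMUSG00000040152) at chr2:118111876-118127133 on the plus strand. Fn1 (ENSMUSG00000026193) is at chr1:71585520-71653200 on the minus strand and Sparc (ENSMUSG00000018593) at chr11:55394500-55423183 on the minus strand. Chromosome 11 took the largest share of the counts of any chromosome, 11.4, 11.5 and 11.5% in lines 36, 47 and 78. It also held the most listed genes, 1427 of 17512, and its gene Col1a1 alone took 3.48% of the counts.

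The start-proximal sequence of the abundant genes was compared for the TATA box, the element bound by TATA-binding protein shortly before the start of transcription. The letters TATAAA were searched on the strand of the gene only, in the 45 bases before each RefSeq start (GRCm38.p6), for the 13163 genes with an entry. They were found before 299 of these genes (2.27%). By level, they were found before 126 of 2684 protein-coding genes under 1 CPM (4.69%), 44 of 2624 at 1 to 10 CPM (1.68%), 77 of 5513 at 10 to 100 CPM (1.397%), 36 of 1535 at 100 to 1000 CPM (2.35%) and 4 of 63 at 1000 CPM or more (6.35%). The share was thus lowest in the middle of the range and higher at both ends, with 4 genes behind the top value. At 1000 CPM or more, 63 of 82 protein-coding genes had an entry. Col1a1, Thbs1, Actb and Fn1 had none, so they were not searched. A match is a description of the letters and not of a working element. These 4 windows are shown because they belong to the most abundant transcripts with a match, 5′ to 3′ on the gene's strand and ending at the base before the start, with the matched letters in capitals.
Eef2: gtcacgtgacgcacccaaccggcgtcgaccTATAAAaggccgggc
Vim: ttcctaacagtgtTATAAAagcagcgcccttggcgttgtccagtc
Postn: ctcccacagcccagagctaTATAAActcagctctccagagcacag
Cemip: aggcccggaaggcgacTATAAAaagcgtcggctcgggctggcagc

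The window of Eef2, the elongation factor of ribosome translocation, is chr10:81176586-81176630 on the plus strand, and that of Vim, the intermediate filament of mesenchymal cells, is chr2:13574266-13574310 on the plus strand. The window of Postn, the matricellular protein periostin, is chr3:54361062-54361106 on the plus strand, and that of Cemip, a hyaluronan-degrading protein, is chr7:84086506-84086550 on the minus strand. Their transcripts had 1065, 544, 526 and 86.2 CPM per kb in that order. The match began 32 bases before the start in Vim, 29 in Cemip, 26 in Postn and 15 in Eef2. CpG dinucleotides in the 250 bases before the start had a median of 6 under 1 CPM, 13, 17 and 18 in the next 3 bins and 16 at 1000 CPM or more.

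Genes of the extracellular matrix together took 18.8 ± 1.24% of all counts (SD, n = 3) over 155 genes, or 18.5, 17.8 and 20.2% in lines 36, 47 and 78. Collagen chains made up the largest class at 8.30, 8.28 and 9.85%. Of 44 collagen genes, 31 were at 1 CPM or more and 26 at 10 CPM or more. After the type I and III chains, the highest per length were Col5a1, a regulator of fibril width, at 634 ± 128 CPM per kb and Col6a1, a chain of the beaded filaments, at 518 ± 28.3. Type IV collagen, the network of basement membranes, was carried by Col4a1 at 277 ± 51.9 and Col4a2 at 281 ± 47.9 CPM per kb, which are transcribed from a shared promoter region and did not differ beyond their spread.

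Matrix glycoproteins took 7.33, 6.80 and 7.43% of the counts, with 45 of 46 genes at 1 CPM or more. Per length Thbs1 led at 3571 ± 324 CPM per kb, followed by Sparc at 1241 ± 140, Fn1 at 930 ± 283 and tenascin C, Tnc, at 700 ± 50.5. This order depended on the exon length: with the basic transcript set Postn had 1391 CPM per kb in place of 526 and lay above Fn1 at 1282, and fibulin 2, Fbln2, had 890 and lay above Tnc. Proteoglycans took 0.971 ± 0.0403%, led by biglycan, Bgn, at 537 ± 24.3 CPM per kb, or 1354 with the basic transcript set. All 23 genes of collagen folding and cross-linking were at 1 CPM or more, with 1.07 ± 0.0304% of the counts. Among them the cross-linking enzyme Lox had 804 ± 36.7 CPM per kb and Serpinh1, the collagen chaperone HSP47, had 764 ± 17.4. Among proteases and their inhibitors, the metalloproteinase inhibitor Timp2 at 445 ± 40.7 CPM per kb stood above the gelatinase Mmp2 at 182 ± 26.0 and the membrane-bound collagenase Mmp14 at 157 ± 11.4.

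**Figure D2:**
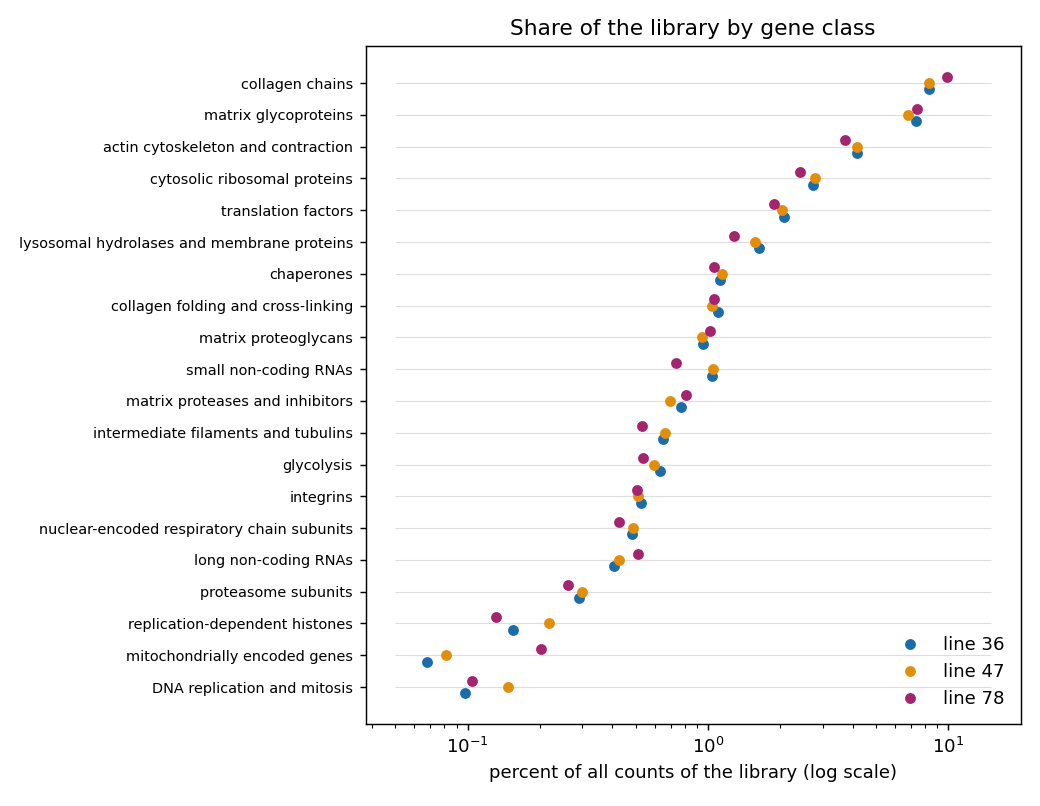
Percent of all counts of a library (log scale) taken by each of 20 gene classes, with 1 point per wild-type line. Collagen chains and matrix glycoproteins lie at the top with 8.81 and 7.19% on average, and the lines part most for mitochondrially encoded genes, from 0.0674 to 0.202%.

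The plot of class shares places the housekeeping and cytoskeletal classes below the matrix. The actin cytoskeleton and its contractile partners took 4.16, 4.15 and 3.70% of the counts over 38 genes, all at 10 CPM or more. Cytosolic ribosomal proteins took 2.74, 2.80 and 2.41% over 84 genes. As these transcripts are short, their share of the summed per-length level was larger at 6.28%, against 4.21% for collagen chains. Per length, the median ribosomal protein gene had 155 CPM per kb, the median actin cytoskeleton gene 124 and the median collagen chain 6.67, so the share of collagens rested on a few chains. Lysosomal hydrolases and membrane proteins took 1.63, 1.57 and 1.28%, led by cathepsin D, Ctsd, at 929 ± 225 CPM per kb (SD, n = 3). Chaperones took 1.11 ± 0.0416%, glycolytic enzymes 0.588 ± 0.0465%, nuclear-encoded respiratory chain subunits 0.466 ± 0.0337% and proteasome subunits 0.284 ± 0.0192%. Adhesion to this matrix was carried by integrins at 0.512 ± 0.0105% of the counts. Itgb1, the shared beta chain of the collagen and fibronectin receptors, led at 411 ± 24.8 CPM per kb. Its alpha partners Itga11, of the collagen receptor, and Itga5, of the fibronectin receptor, had 101 ± 2.73 and 98.0 ± 9.42 CPM per kb, which did not differ beyond their spread. Itgb2, the leukocyte beta chain, had 128, 125 and 115 CPM, close together in the 3 lines. The intermediate filament Vim had 544 ± 71.3 CPM per kb, and the nuclear lamina gene Lmna had 849, 823 and 758 CPM in lines 36, 47 and 78.

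Protein-coding genes held 98.6% of the counts in all, small non-coding RNAs 0.939 ± 0.178% and long non-coding RNAs 0.449 ± 0.0555%. Malat1, a nuclear RNA of most cells, led the long non-coding RNAs per length at 290 ± 36.6 CPM per kb and had 1855, 1908 and 2322 CPM. Mir6236, an annotated microRNA gene, had 659, 440 and 254 CPM. Malat1 was highest and Mir6236 lowest in line 78. Mir6236 fell over the lines in the same order as Lars2, and whether its counts come from the annotated microRNA was not tested.

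Genes of the cell cycle were present at lower levels. Replication-dependent histones, which package newly made DNA, took 0.155, 0.218 and 0.131% of the counts. Genes of DNA replication and mitosis took 0.0971, 0.147 and 0.104%. Both classes were highest in line 47. Pcna, the replication clamp, led the latter per length at 32.8 ± 5.47 CPM per kb (SD, n = 3), and Top2a, the topoisomerase of mitotic chromosomes, had 106, 159 and 105 CPM. Among the inhibitors of the cycle, Cdkn1a, the p53 target p21, led per length at 102 ± 13.5 CPM per kb and had 413, 354 and 318 CPM in lines 36, 47 and 78. Cdkn2a, the locus of p16 and p19ARF that rises as cultured fibroblasts age, had 72.9, 50.6 and 59.2 CPM. Both were highest in line 36, which held the lowest share of replication and mitosis genes. The share of replication-dependent histones was instead lowest in line 78, where Cdkn1a was also lowest. A link between the inhibitors and either class was not tested.

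Transcripts of other lineages were then read from 17 lists of cell type markers. The list after the fibroblast list in median level was that of smooth muscle and myofibroblasts, with 8 of 8 genes at 10 CPM or more and a sum of 6178, 5771 and 5067 CPM. Acta2 led it at 3517, 3372 and 2985 CPM, and Tagln, the actin-binding protein transgelin, had 1367, 1262 and 1065 CPM. Cnn1, smooth muscle calponin, and Myh11, the smooth muscle myosin heavy chain, were lower at 198 ± 16.3 and 38.7 ± 4.27 CPM (SD, n = 3). Line 36 was highest and line 78 lowest for the sum and for Acta2, Tagln and Cnn1, while Myh11 was highest in line 78.

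Macrophage transcripts were present in every line. All 10 genes of the list were at 10 CPM or more, with a sum of 4721, 5239 and 4751 CPM in lines 36, 47 and 78. Csf1r, the receptor for the macrophage growth factor CSF1, had 602, 612 and 569 CPM. Adgre1, which encodes the F4/80 antigen, had 427, 466 and 480 CPM. Ptprc, the CD45 phosphatase of all leukocytes, had 97.4, 109 and 114 CPM. The lines lay close together for these genes, with ratios of highest to lowest line between 1.08 and 1.17. Mrc1, the mannose receptor, had 270, 296 and 195 CPM and Cd68, a lysosomal membrane protein, had 160, 165 and 122 CPM, both lowest in line 78. The lysosomal share above was also lowest in line 78, and the part of the macrophage transcripts in it was not tested.

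**Figure D3:**
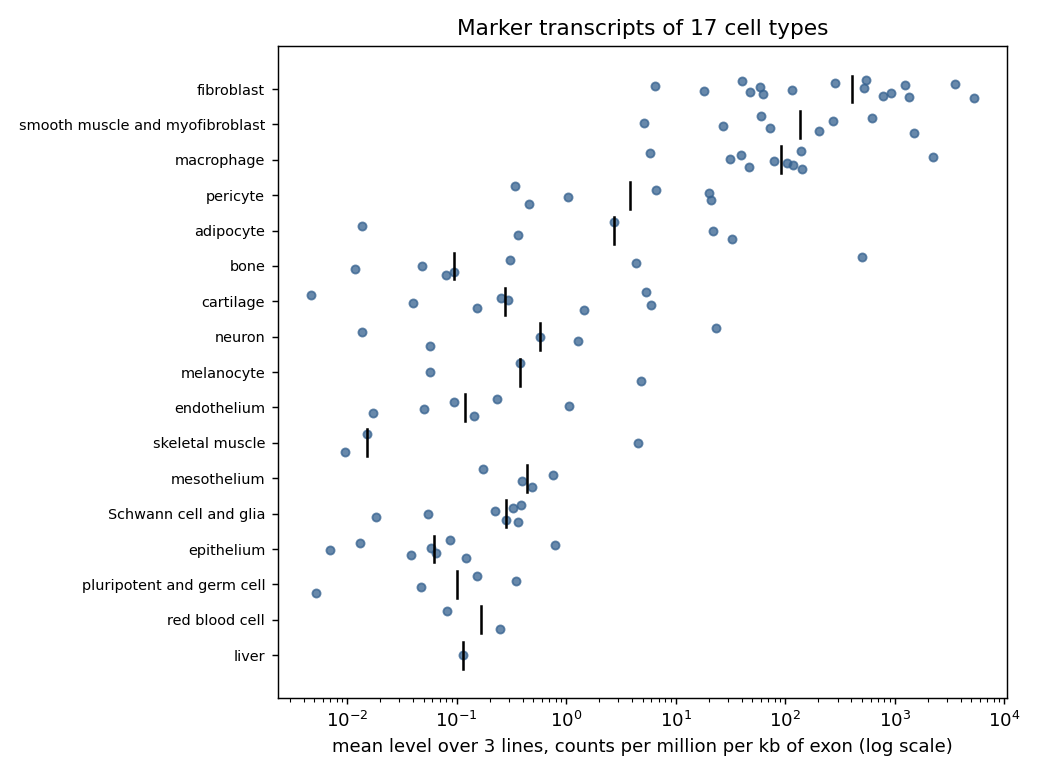
Mean level over the 3 wild-type lines of each marker gene of 17 cell types, in CPM per kb of exon (log scale); each point is 1 gene and the bar is the median of the list. The fibroblast, smooth muscle and macrophage lists have medians of 404, 137 and 90.7, and every other list but those of pericytes and adipocytes has a median under 1.

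The other lists, shown in the plot of marker transcripts, had lower medians. Of 6 pericyte genes, all were at 1 CPM or more and Cspg4, Notch3 and Mcam at 10 CPM or more. The NG2 proteoglycan Cspg4 had 267, 252 and 226 CPM, but Rgs5, the defining marker, had 2.17, 0.554 and 1.90. Kcnj8, at 1.05, 1.01 and 5.88 CPM, and Abcc9, at 2.27, 2.33 and 6.95 CPM, were highest in line 78. Cspg4 and Mcam were lowest in line 78, and Notch3 and Rgs5 were lowest in line 47. Of the adipocyte list, the lipase Lpl had 135, 184 and 364 CPM and the transcription factor Cebpa had 87.0, 89.95 and 82.3, while the lipid droplet protein Plin1 was at 0.0632 ± 0.0143 CPM (SD, n = 3). Of the bone list, Spp1, osteopontin, had 1094, 844 and 543 CPM and Runx2, the osteoblast regulator, had 40.9, 38.9 and 35.7, while the bone sialoprotein Ibsp was at 0.0524, 0 and 0.0202 CPM. Spp1 was highest in line 36 and lowest in line 78, and Lpl the reverse. Neither order held for the whole list. Of the adipocyte genes, Cebpa, Pparg (8.75, 9.05 and 6.14 CPM) and Fabp4 (1.94, 1.61 and 1.30 CPM) were lowest in line 78. Of the bone genes, Runx2 and Dmp1 were lowest in line 78, while Sp7, Alpl and Phex, with means of 1.04, 0.320 and 0.301 CPM, were highest there.

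Of 5 measured neuronal genes, the tubulin Tubb3 had 46.4, 49.97 and 35.04 CPM and the microtubule-binding protein Map2 had 12.4, 13.4 and 38.04 CPM, while the synaptic protein Syt1 was at 0.157, 0.126 and 0.0607 CPM. Map2 was highest and Tubb3 lowest in line 78. Stmn2 fell from 6.42 and 2.87 CPM in lines 36 and 47 to 0.445 CPM in line 78. Elavl4, at a mean of 0.305 CPM, was highest in line 78.

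Endothelial transcripts were low. Kdr, a VEGF receptor, had 8.71, 9.68 and 10.1 CPM, whereas Pecam1 and Cdh5, which define endothelium, had 0.593 ± 0.0838 and 0.603 ± 0.114 CPM (SD, n = 3). Of 8 epithelial genes only the keratin Krt18 was at 1 CPM or more, at 1.14 ± 0.289 CPM, and Epcam had 0, 0.0252 and 0.0202 CPM. None of the measured red blood cell, pluripotent and germ cell or liver markers reached 1 CPM (0 of 2, 0 of 4 and 0 of 1), with Nanog at 0.344 ± 0.127 CPM and Afp at 0.383 ± 0.182. The neural crest and glial factor Sox10 was at 0.157, 1.44 and 1.92 CPM and its target Erbb3 at 0.655, 2.09 and 3.85 CPM, both lowest in line 36. Of the 4 mesothelial genes, Msln, Upk3b and Lrrn4 were highest in line 78, at 2.77, 5.26 and 4.60 CPM, against 0.262 to 1.94 CPM in the other lines, whereas Wt1 had 1.28, 0.906 and 1.01 CPM and was highest in line 36.

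Of 8 cartilage genes, 3 were at 10 CPM or more, and 2 of these, Col2a1 and Acan, had a highest line over 2-fold above the lowest. Col2a1, the collagen of cartilage (ENSMUSG00000022483), had 60.7, 104 and 0.628 CPM in lines 36, 47 and 78. The cartilage proteoglycan Acan had 6.24, 24.05 and 1.96 CPM. The chondrocyte regulator Sox9 had 26.4, 25.2 and 14.8 CPM. All 3 genes were lowest in line 78, by far for Col2a1, and line 47 was the highest for Col2a1 and Acan. Of the list's genes under 10 CPM, Col11a2 was highest in line 78, at 0.930, 1.07 and 1.18 CPM, and Comp was lowest in line 47, at 1.70, 0.428 and 0.486 CPM. Col10a1, the collagen of hypertrophic cartilage, was also lowest in line 78, with 35.6, 24.7 and 11.8 CPM. Des, the muscle intermediate filament desmin, had 26.5, 20.7 and 3.44 CPM and was also low in line 78. Only 3 of the 8 genes on the skeletal muscle list were measured, and Des did not stand for the others. Ttn, titin, was highest in line 78, at 1.01, 2.04 and 2.30 CPM, and Actc1 had 0.0262, 0 and 0.0202 CPM.

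The transcription factors of the wild-type state were read from 13 families with 298 genes, of which 225 were at 1 CPM or more and 146 at 10 CPM or more. Per length, the highest was Atf5, a stress-responsive bZIP factor, at 181 ± 3.89 CPM per kb (SD, n = 3). After it came Id3, a dominant-negative bHLH protein, at 98.98 ± 8.32, and Atf4, the effector of the integrated stress response, at 75.1 ± 11.3. Klf6, a zinc finger factor, had 60.9 ± 2.77 CPM per kb and Prrx1, the homeobox gene of limb and craniofacial mesenchyme, had 58.4 ± 1.86, which did not differ beyond their spread. Prrx2, a homeobox paralog of Prrx1, Twist1, a bHLH factor of mesenchyme, and Tead1, a partner of the YAP coactivator, lay close together between 39.7 and 41.3 CPM per kb. Of the 146 factors at 10 CPM or more, 5 had a highest line over 2-fold above the lowest (3.42%), against 162 of all 8860 genes at that level (1.83%). Among them were Hoxd8, Foxc1, Foxc2 and Id4.

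Hox genes, which record position along the body axis, were detected in part. Of 37 Hox genes listed, 25 were at 1 CPM or more and 4 at 10 CPM or more. Hoxd8 led at 26.3, 29.8 and 59.9 CPM, with Hoxb9 at 24.6, 36.9 and 23.4, Hoxc8 at 19.4, 24.5 and 17.2 and Hoxc6 at 14.3, 14.5 and 19.5 CPM. Hoxd8 was highest in line 78 and Hoxb9 in line 47. Hoxc10, a gene of lumbar and hindlimb levels, had 7.98, 6.87 and 0.223 CPM. Hoxd13, the gene of the distal limb and genital bud, had 0.970, 5.41 and 1.54 CPM. Line 78 thus lacked most of the Hoxc10 transcript of the other lines, and line 47 alone had Hoxd13 above 2 CPM.

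Imprinted genes, which are transcribed from 1 parental allele, were well represented, with 19 of 20 measured genes at 1 CPM or more. Igf2r, the receptor that clears IGF2, led by CPM at 960, 885 and 1058. Per length, H19 led at 128 ± 38.5 CPM per kb (SD, n = 3). H19 had 247, 276 and 423 CPM and its neighbour Igf2, the fetal growth factor, had 103, 121 and 295 CPM. Dlk1, the Notch-like regulator of preadipocytes, had 150, 86.4 and 278 CPM and Plagl1, a zinc finger factor, had 44.2, 46.2 and 108 CPM. All 4 genes were highest in line 78. They were named for their level or their range between lines. The line order of the other measured imprinted genes is not reported here, so these 4 do not describe the list as a whole. Of 17 imprinted genes at 10 CPM or more, 4 had a highest line over 2-fold above the lowest, against 1.83% of all genes.

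**Figure D4:**
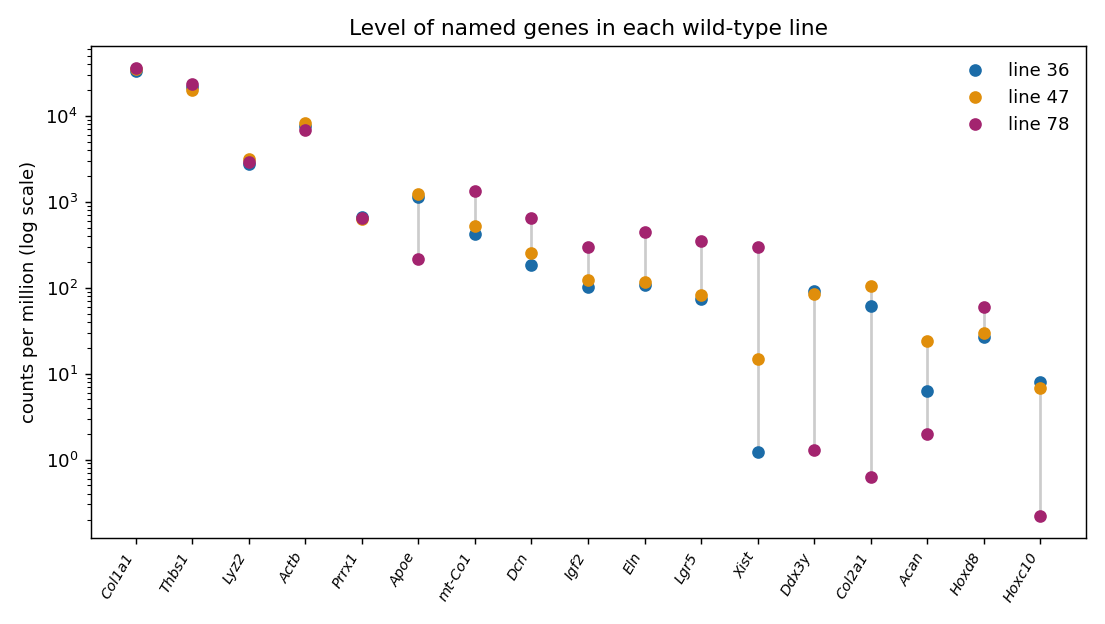
CPM (log scale) of 17 genes named in the text, chosen after their values were seen, with 1 point per wild-type line. Col1a1, Thbs1, Lyz2, Actb and Prrx1 stay within 1.20-fold, whereas line 78 stands apart for Xist, Ddx3y, Col2a1, Hoxc10 and others.

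The spread between lines was small for most genes. Across 12372 to 12374 genes, which are not independent replicates, Pearson's r of log2 CPM was 0.993 for lines 36 and 47, 0.973 for lines 36 and 78 and 0.979 for lines 47 and 78. Of the 8860 genes at a mean of 10 CPM or more, 6410 had a coefficient of variation under 10% and 3063 under 5%. The median coefficient of variation was 6.64%, against 1.67% from counting error alone, which takes each count as independent. The median ratio of the highest to the lowest line was 1.14. The smallest coefficients of variation belonged to Kank1, Trip12, Zfp277, Arhgef2, Tsc1, Plekhg2, Lpcat4, Pdia3, Cd151 and Ro60. Trip12, a ubiquitin ligase, had 473.9, 474.7 and 474.6 CPM, a spread below its own counting error. The common dispersion over the lines corresponded to a biological coefficient of variation of 18.3%.

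**Figure D5:**
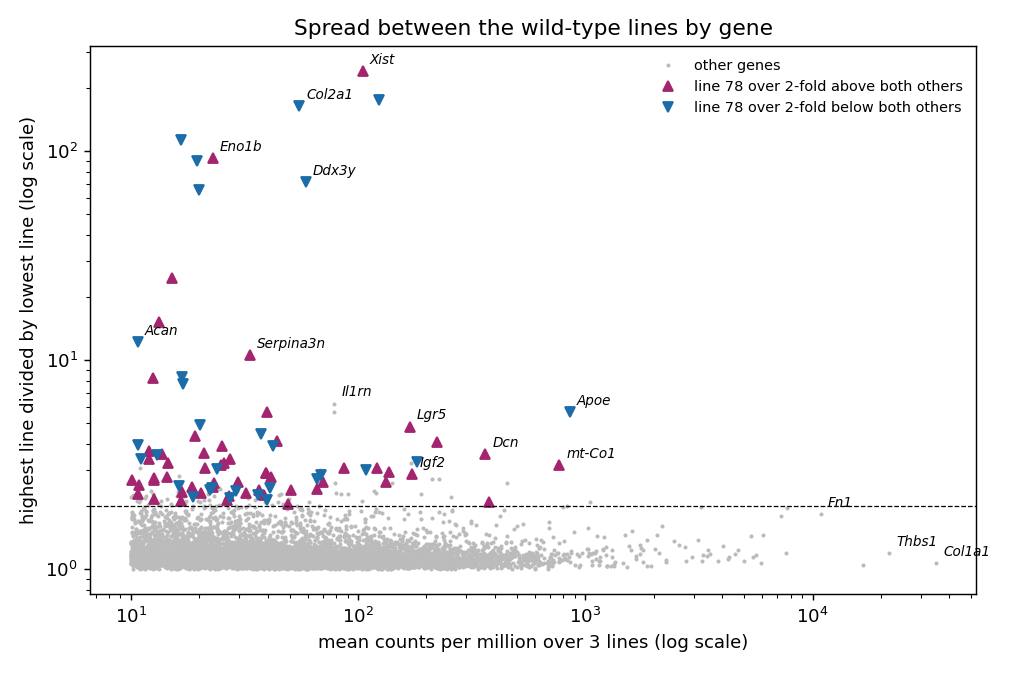
Ratio of the highest to the lowest wild-type line against the mean CPM, both on log scales, for the 8860 genes at 10 CPM or more; triangles mark genes for which line 78 lay over 2-fold above (55 genes) or below (30 genes) both other lines, and the dashed line marks 2-fold. Most genes lie below the dashed line, and most of the highest ratios belong to line 78.

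Most of the wide genes were set by line 78, as the plot of the spread shows. Lines 36 and 47 differed over 2-fold for 13 genes, against 139 genes for lines 36 and 78 and 106 for lines 47 and 78. Line 78 lay over 2-fold above both others for 55 genes and below both for 30. For line 36 these numbers were 3 and 4, and for line 47 they were 2 and 2. Without line 78 the biological coefficient of variation was 10.6%, and without line 36 or line 47 it was 20.2 or 22.4%. Line 78 was also the deepest of the 3 libraries, and the part of depth in this was not tested.

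The 15 widest ratios belonged to Xist, LOC115487691, Col2a1, Eif2s3y, Eno1b, Kdm5d, Ddx3y, Uty, LOC102638448, Atp10d, Acan, Serpina3n, Smoc1, Acp5 and Des. Xist and LOC102638448 lie on the X chromosome, and Eif2s3y, Kdm5d, Ddx3y and Uty on the Y chromosome. Xist, the RNA that silences 1 X chromosome in female cells (ENSMUSG00000086503, chrX:103460366-103483254, minus strand), had 1.23, 14.8 and 299 CPM in lines 36, 47 and 78. The Y-linked helicase Ddx3y had 90.9, 84.2 and 1.28 CPM. Line 78 was high for Xist and low for Ddx3y, Uty, Kdm5d and Eif2s3y, and the 5 measured Y genes summed to 187, 167 and 6.36 CPM. Line 47 held Xist and Y-linked transcripts together, and whether its library holds more than 1 source of RNA was not tested. The X chromosome as a whole took a near-equal share of the counts, 3.16, 3.15 and 3.11%. Without Xist and the Y genes the biological coefficient of variation over the lines was 17.9%.

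Several matrix and signalling genes were high in line 78 alone. Eln, the elastin precursor, had 109, 117 and 441 CPM, and Dcn, the collagen-binding proteoglycan decorin, had 183, 252 and 651 CPM. The elastic fibre component Mfap5 had 29.8, 22.7 and 65.6 CPM. Among Wnt regulators, the R-spondin receptor Lgr5 had 73.0, 82.8 and 352 CPM, Sfrp1 had 277, 276 and 578, and Sfrp2 had 14.8, 20.3 and 84.3 CPM. All of these are among the 55 of 8860 genes for which line 78 lay over 2-fold above both other lines. Their gap to lines 36 and 47 is therefore part of how they were chosen. Serpina3n, a secreted protease inhibitor, had 7.86, 9.03 and 83.6 CPM. Eno1b, listed at 0.681, 5.12 and 63.2 CPM, has a near-identical copy in Eno1, so its counts are uncertain. Acp5, the acid phosphatase of osteoclasts and macrophages, had 3.59, 4.57 and 29.5 CPM. LOC102638448, a transcribed pseudogene, had 1.65, 3.47 and 40.7 CPM, and Atp10d, annotated as a polymorphic pseudogene, had 2.17, 4.75 and 33.02 CPM. For these genes too the gap to line 78 follows from the choice of wide ratios.

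Genes low in line 78 included Apoe, the lipid carrier apolipoprotein E, with 1130, 1217 and 216 CPM. Igfbp2, an IGF-binding protein, had 283, 176 and 86.8 CPM, and Nes, the intermediate filament nestin, had 90.8, 74.4 and 33.5 CPM. Apoe is made by macrophages as well as by other cells. Of the 10 macrophage genes, Csf1r, Cd53, Tyrobp, Fcer1g, Cd68 and Mrc1 were lowest in line 78 and Adgre1, Itgam and Ptprc highest there, and their part in the level of Apoe was not tested. LOC115487691, 1 of several annotated small nuclear RNA genes, had 164, 206 and 1.17 CPM, and counts between its like copies are uncertain. A few genes stood apart in another line. Smoc1, a secreted modular calcium-binding protein, had 34.1, 12.1 and 4.08 CPM. It is also among the 30 genes for which line 78 lay over 2-fold below both other lines. Il1rn, the interleukin 1 receptor antagonist, had 160, 50.8 and 25.7 CPM, and Wdfy1, an endosomal adaptor, had 106, 19.3 and 109 CPM. Line 36 was high for Smoc1 and Il1rn, and line 47 was low for Wdfy1.

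The wide genes were then counted by class, as a description without a test. Of 128 matrix genes at 10 CPM or more, 17 had a ratio over 2 (13.3%), against 1.83% of all genes. These were Col2a1, Col8a1, Col10a1, Col23a1, Smoc1, Efemp1, Lama5, Mfap5, Eln, Tnxb, Spp1, Prelp, Dcn, Acan, Lum, Mmp3 and Mmp9. The abundant type I chains were not among them, with ratios of 1.07 and 1.05. None of 80 ribosomal protein genes, 38 actin cytoskeleton genes, 34 lysosomal genes, 25 chaperones or 22 collagen folding genes had a ratio over 2. At 1.83% of all genes, few or none would be expected in classes of this size. The median ratios of the classes, in that order, were 1.16, 1.17, 1.26, 1.12 and 1.15. Over all genes at 10 CPM or more the median was 1.14, and only the chaperones lay below it.

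Mitochondrially encoded genes were the class with the widest spread. All 6 genes at 10 CPM or more had a ratio over 2 and were highest in line 78. The cytochrome oxidase subunit mt-Co1 had 427, 525 and 1352 CPM, and the cytochrome b gene mt-Cytb had 80.3, 94.1 and 235 CPM. The nuclear-encoded respiratory chain subunits were lowest in line 78, with 0.485, 0.487 and 0.427% of the counts in lines 36, 47 and 78. Of their 74 genes at 10 CPM or more, 0 were over 2-fold, against 1.83% of all genes.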

How the data were processed

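RNA of 6 primary mouse embryonic fibroblast lines was sequenced, and the 3 libraries labelled HAT1 WT were described here. The authors deposited 1 table of raw read counts per gene, not normalized. The submitters' processing notes name mm10 and edgeR, while the aligner, the counter and the use of strand are not given in the sources used here. The deposited table also held the authors' comparison of genotypes (log2 fold change, log2 mean CPM, an F score, p-value and q-value), which was not used. All 17512 identifiers were found in GENCODE M21 (GRCm38), 24 symbols turned into dates were restored, 25 rows shared a symbol with another row and were told apart by identifier, and every library column matched a sample (0 unmatched). Counts from 1 to 10 were even in 71.6 to 77.6% of cases, against 54.3 to 55.8% of counts from 101 to 1000. The 2 reads of a pair may thus each have been counted. If so, counts are not independent, and the floors and counting errors given are too small. The floors allow for counting error only.

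Counts were scaled to CPM by library totals of 76324312 to 98786746 counts. Levels per length were CPM per kb of the union of annotated exons. Values are means ± SD over the 3 lines. With 1 group no hypothesis test was made, and correlations across genes were used only as a check. The dispersion was estimated with edgeR 4.0.16 in R 4.3.3 (estimateDisp with an intercept, TMM scaling, 14159 genes kept by filterByExpr), and the step was tested on simulated data. Other steps used Python 3.11.15 and pandas 2.3.3. Promoter sequences are those of RefSeq (GRCm38.p6).

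Genes were named by rule: the 25 leading genes by CPM and per length, the marker, Hox, imprinted and sex-linked lists, the leading members of each class, the 20 leading transcription factors, and, at 10 CPM or more, the 15 genes of widest ratio and the 10 of smallest coefficient of variation. Other genes of wide ratio were chosen after their values were seen. Some genes that the rule covers are not reported here. The members and lists were chosen with earlier results of these data known. Alternatives were other scalings (TMM, DESeq2 1.42.0 size factors), filters, gene lengths and totals, a pseudocount and leaving out each line.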

Additional observations from a re-analysis of the deposited data

How the results depend on the processing

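Of 182 alternative values, 156 stayed within a set limit and 26 moved by more. The limit was the spread between lines, 1.5 times for counts of genes, and 10% of the main value for the biological coefficient of variation. The 156 values include shares with a line left out, which could not have exceeded the spread between lines. The ranking by CPM, the counts of genes per level and the correlation between lines were within these limits under every scaling, filter and total that was run. Levels per length moved the shares. The 10, 100 and 1000 leading genes then held 18.7, 35.6 and 65.0% of the summed level, collagen chains 4.21%, matrix glycoproteins 4.52%, the actin cytoskeleton 4.38% and ribosomal proteins 6.28%, and 16 of the 20 class shares moved. No class share moved by more than its SD over the lines under another setting. With a line left out it could not, because the mean of so few lines then always shifts by less than their SD. The same holds for the shares of the leading genes, so leaving out a line did not test any of these shares. Taking mitochondrially encoded genes, with 0.117% of the counts, out of the total could hardly move a share either. The share of mitochondrially encoded genes, whose SD was 0.0740, went from 0.117 to 0.0744% without line 78. The biological coefficient of variation was 16.1% with counts halved and 10.6 to 22.4% with each line left out in turn, lowest without line 78. The number of genes over 2-fold was 590 at a mean of 1 CPM or more, where counting error is larger. With 1 line left out it was 13 to 139, and it was 13 without line 78 and 106 without line 36. No paired analysis was possible because the genotypes share no replicate number and no groups were compared.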
